A study of Arabidopsis thaliana with 12 samples.

Results

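The histone genes of Arabidopsis thaliana were followed across whole rosettes of 4 genotypes. Members were the loci whose deposited functional annotation opens with the term for a histone superfamily protein or for a numbered or lettered histone, which took in 52 of the 33323 loci of the table. Of these, 45 encode histone proteins: 1 linker histone H1, 12 H2A types, 11 H2B, 13 H3 types and 8 H4. The other 7 fall under the wording of the annotation but were not classed as histones. They are 4 loci annotated as SET7/9 family methyltransferases of histone H3 (AT1G21920, AT1G77660, AT2G35170 and AT4G17080), LEC1 (AT1G21970, a transcription factor of embryo development), MHF1 (AT5G50930) and AT5G19490. All counts of histone genes below leave these 7 out. HTA3 (AT1G54690) and MGH3 (AT1G19890), annotated under other words, lie outside the rule. Any further histone genes annotated under other words, linker histones included, were not followed.

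Rosettes of 25 d old plants, cut free of roots, came from soil at 20 °C with days of 16 h light and nights of 8 h dark. The double mutant jazD cdk8-1 carries both lesions, jazD is a higher-order mutant of the JAZ repressors of jasmonate signalling whose single alleles the sources used here do not name, cdk8-1 is a mutant of CYCLIN-DEPENDENT KINASE 8, and Col-0 is the wild type to which all were compared. Each genotype has 3 libraries, each made from a separate pool of about 10 plants, and mutants and wild type shared a tray. The cdk8-1 lesion is represented by 1 allele, so that its effects and those of anything linked to it cannot be told apart.

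In the nucleus, DNA is wound around cores built of the histones H2A, H2B, H3 and H4, and linker histone H1 binds the DNA between cores. Plants, like animals, make a bulk supply of histones during DNA replication and replace them at other times with variants: H3.1 is deposited with replication, whereas H3.3 is exchanged throughout the cell cycle and gathers at transcribed genes. H2A.Z sits near gene starts and is linked to responsive genes, H2A.W marks plant heterochromatin, and H2A.X is phosphorylated at DNA breaks. CDK8 is the kinase of a detachable module of Mediator, the complex that links transcription factors with RNA polymerase II.

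The promoters of plant histone genes are known for an octamer motif, and its copies are shown because it is rare among all promoters and lies in front of several of the genes that changed. The octamer CGCGGATC, searched on both strands from 250 bases before to 50 after each gene start (RefSeq genes, assembly TAIR10.1), was found in 9 of 45 histone promoters (20.0%) and in 39 of 26711 promoters of all protein-coding genes (0.15%). 1 window of each of the 9 genes is written along the strand of the gene, with the octamer or its reverse complement in capitals. AT1G09200 and HTA10 each hold a further copy closer to the gene start.
H3.1 AT1G09200, chr1:2972405-2972436, minus strand: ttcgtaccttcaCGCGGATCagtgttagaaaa
H3.1 AT5G10400, chr5:3271058-3271089, minus strand: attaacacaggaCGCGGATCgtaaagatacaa
H3.1 AT5G65360, chr5:26120688-26120719, minus strand: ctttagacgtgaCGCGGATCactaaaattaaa
H3.3 AT4G40040, chr4:18558943-18558974, minus strand: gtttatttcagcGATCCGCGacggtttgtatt
H4 AT1G07660, chr1:2368695-2368726, plus strand: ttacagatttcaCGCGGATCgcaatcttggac
H4 AT5G59690, chr5:24051391-24051422, plus strand: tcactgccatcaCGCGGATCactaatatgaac
H2A HTA10, chr1:18926725-18926756, plus strand: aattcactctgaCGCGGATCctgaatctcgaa
H2A HTA13, chr3:7229310-7229341, plus strand: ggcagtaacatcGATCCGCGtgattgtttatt
H2A.W HTA6, chr5:24116317-24116348, minus strand: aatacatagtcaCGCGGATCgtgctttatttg

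No octamer was found in the 11 H2B promoters. The hexamer ACGTCA, another motif of plant histone promoters, showed the opposite split: 9 of 11 H2B promoters held it (81.8%), against 13 of all 45 histone promoters (28.9%) and 9.22% of all promoters. The letters AACGG, the core of an element of mitotic promoters, were in 29 of 45 histone promoters (64.4%) and in 24.72% of all promoters. A TATA box written as TATAAA was about as frequent in histone promoters (55.6%) as in all (52.61%), but it was in no promoter of the 3 H3.3 genes and in 4 of those of the 5 H3.1 genes. These matches describe letters in a window and not sites of binding.

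Several genes of a class encode the same protein. The 5 H3.1 genes encode 1 protein and the 8 H4 genes encode 1 protein, although their coding sequences are only 80.3% to 89.5% and 78.8% to 98.1% identical. H3.1 from AT5G65360 and H3.3 from AT4G40040 and AT5G10980 differ at 4 positions of 135, counted from the residue after the first methionine: A31T, F41Y, S87H and A90L, with the H3.1 residue first. All 5 H3.1 genes and all 11 H2B genes have 1 exon, whereas each of the 3 H3.3 genes has several. Counts that were not whole, a sign that reads were divided between near-identical copies, occurred in all 12 libraries for the H4 genes AT3G45930 and AT3G46320, in 11 for the H3.1 gene AT3G27360 and in 1 for HTA5. The values of AT3G45930, AT3G46320 and AT3G27360 are therefore uncertain as to which copy the reads came from.

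Libraries held 17583466 to 21030373 expected counts, and 19059 genes were tested, among them 40 of the 45 histone genes and 5 of the other 7. CDK8 itself stood at 2.725 to 3.3 CPM (counts per 1e6 of scaled library size) in jazD cdk8-1 and 20.08 to 21.1 CPM in jazD, and at 2.30 to 2.74 CPM in cdk8-1 and 17.4 to 20.3 CPM in Col-0. Both genotypes with cdk8-1 are called without CDK8 below, although some CDK8 reads remained in them. Leaf markers for photosynthesis (RBCS1A, LHCB1.3 and RCA) together made up 46300 to 55140 CPM in every library, although single members changed. RCA fell by 0.71 in jazD against Col-0 (edgeR adjusted p = 9.25e-11) and rose by 0.35 in jazD cdk8-1 against jazD (5.95e-06), and in cdk8-1 against Col-0 RBCS1A rose by 0.24 (0.00990) and LHCB1.3 fell by 0.25 (0.00227). By contrast the root markers RHD6 and EXPA7 were at 0 throughout. COBL9 had 1 count, in cdk8-1 replicate 3, whereas NRT2.1 had 4 to 53 counts per library and is described below. The 5 untested histone genes had few reads over all 12 libraries together: 88 for the H2B locus AT5G02570, 28 for AT1G13370, 24 for AT1G08170, 1 for AT1G75600 and 0 for AT5G12910. The male gamete histone MGH3 also had 0, LEC1 had 0 and AT5G19490 had 77. AT5G02570 lies within HTA12 (AT5G02560) on the opposite strand. As the use of strand is not given, reads of these 2 genes cannot be told apart where they overlap.

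Levels can be compared between genes only per length, as TPM (transcripts per 1e6, scaled for length) from the deposited table. The plot of TPM by gene shows that within most classes a few genes carried the transcript pool. Averaged over the 12 libraries, the H2B gene HTB4 had the highest level of all at 327 TPM (lowest library 292, highest 364), followed by the H3.3 gene AT4G40040 at 309 TPM (256 to 348) and the H3.1 gene AT1G09200 at 301 TPM (241 to 363). The ranges of these 3 neighbours overlap. AT3G53730 led the H4 genes at 228 TPM (175 to 305), HTA10 the canonical H2A genes at 178 TPM (121 to 237), HTA6 the H2A.W genes at 148 TPM (126 to 177) and HTA9 the H2A.Z genes at 105 TPM (96.4 to 113), and HTA5, the only H2A.X gene of the set, stood at 113 TPM (99.9 to 127). At the low end, HIS1-3, a linker histone known to respond to drought, had 6.25 TPM, the centromeric histone HTR12 (CENH3) 4.08 TPM and HTR11 1.11 TPM. Summed over genes, H3.3 made up 50.6 ± 1.4% of H3 TPM in jazD cdk8-1, 57.0 ± 0.1% in jazD, 49.9 ± 1.1% in cdk8-1 and 54.2 ± 0.9% in Col-0 (SD, n = 3 each).

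**Figure D1:**
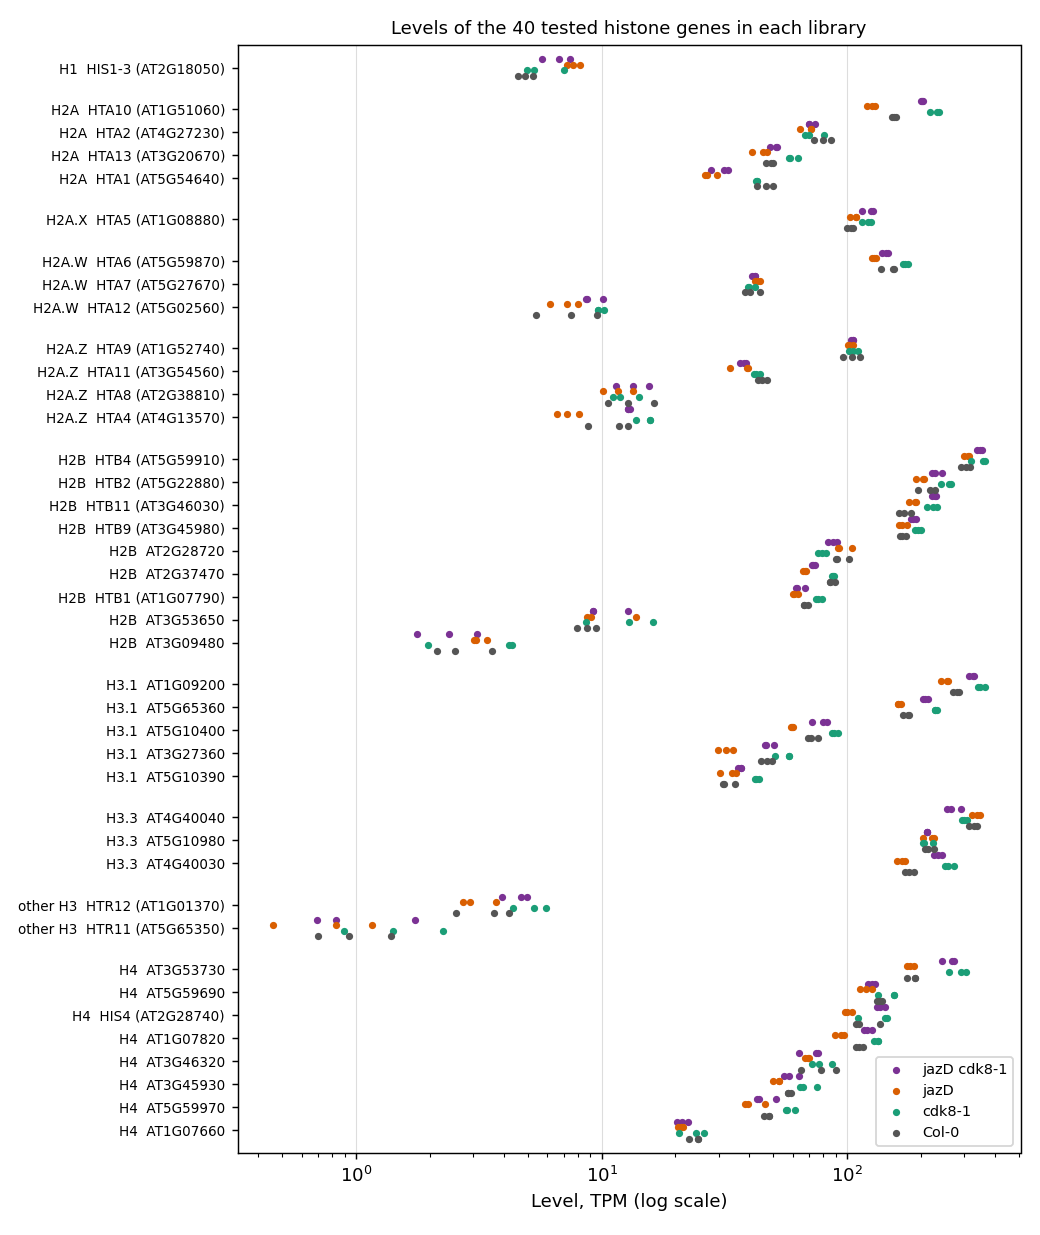
Level of each tested histone gene (rows, grouped by class) in TPM on a log axis, 1 point per library, with rows of points within a gene running from jazD cdk8-1 at the top to Col-0 at the bottom. HTB4, AT4G40040 and AT1G09200 stand highest, and HIS1-3, HTR12, AT3G09480 and HTR11 lie lowest.

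The tests ask which histone genes change when CDK8 is lost, with and without the JAZ repressors, and when the repressors are lost. In both comparisons that lack CDK8, 4 of 5 H3.1 genes rose. Of the 8 H4 genes, 3 rose in jazD cdk8-1 against jazD and 2 in cdk8-1 against Col-0, and of the 4 canonical H2A genes, 1 rose in jazD cdk8-1 against jazD, while 2 rose and 2 fell in cdk8-1 against Col-0. The H3.3 genes AT4G40030 and AT4G40040 changed in opposite directions. In cdk8-1 against Col-0, 13 of 40 tested histone genes rose and 4 fell (edgeR, adjusted p under 0.05), where 11.7% of all tested genes rose and 13.8% fell. Their median log2 change was 0.15, against 0.00 over all genes tested. In jazD cdk8-1 against jazD, 10 rose and 4 fell, against 16.9% and 19.0% of all genes, with a median of -0.00 for the histone genes. For the jazD lesion against Col-0, 3 rose and 9 fell, against 21.8% and 20.9% of all genes, and the median was -0.07. In jazD cdk8-1 against Col-0, 6 rose and 9 fell, against 16.3% and 16.1% of all genes, and the median was -0.03. In both directions together, 17 of 40 passed in cdk8-1 against Col-0 (25.4% of all genes), 14 in jazD cdk8-1 against jazD (35.8%), 12 in jazD against Col-0 (42.8%) and 15 in jazD cdk8-1 against Col-0 (32.4%), so that the rises in cdk8-1 stood furthest above the background. In all, 27 histone genes passed in at least 1 of these 4 comparisons, and 13 passed in none: HTB1, HTB4, HTB9, AT3G53650, AT3G09480, HTA8, HTA9, HTA12, HTR11, HTR12 and the H4 genes AT3G45930, AT3G46320 and AT5G59970. Those that passed measured 0.13 to 0.73 on the log2 scale in jazD against Col-0 and 0.14 to 0.54 in cdk8-1 against Col-0, with medians of 0.21 and 0.24, below the medians of 0.40 and 0.38 over all genes that passed. Over all tested genes, passed or not, the median size of change of the histone genes was 0.12 in jazD against Col-0, where that of all genes was 0.21, but 0.19 in cdk8-1 against Col-0, above the 0.15 of all genes. In pools of whole rosettes, fewer cells of a type and less RNA per cell cannot be told apart.

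The split between rises and falls depends on the scale. CPM here was scaled so that the median gene does not change, while TPM moves the median of all tested genes by -0.06 in jazD against Col-0, by 0.08 in cdk8-1 against Col-0, by 0.13 in jazD cdk8-1 against jazD and by 0.07 in jazD cdk8-1 against Col-0. With limma on log2(TPM + 1), 21 histone genes rose and 1 fell in cdk8-1 against Col-0, beside 20.7% and 9.12% of all genes. On that scale 20 rose and 1 fell in jazD cdk8-1 against jazD, beside 34.0% and 10.9% of all genes. In jazD against Col-0, 1 rose and 15 fell (15.9% and 26.0% of all genes), and in jazD cdk8-1 against Col-0, 11 rose and 4 fell (22.1% and 11.0%). Once each library was centred on the median gene, the TPM test returned 14 and 3, 11 and 5, 2 and 9, and 7 and 7 for these comparisons in the same order. The results that follow are relative to the median gene.

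Without CDK8, 10 histone genes passed in both backgrounds, in cdk8-1 against Col-0 and in jazD cdk8-1 against jazD, which share no library. They make up 71.4% of the 14 that passed in jazD cdk8-1 against jazD and 58.8% of the 17 that passed in cdk8-1 against Col-0. Over all tested genes the corresponding shares were 43.1% and 60.6%. All 10 changed in the same direction, 8 up and 2 down, as did 2621 of the 2941 genes shared over the whole table. For 5 of the 10 (HTA10, AT3G53730, AT4G40030, AT5G65360 and AT2G28720) both calls held whichever single library was left out. Single libraries decide some counts. In cdk8-1 against Col-0, 7 rises were counted without cdk8-1 replicate 2, and 2 falls without Col-0 replicate 2 or 3 or cdk8-1 replicate 1 or 3. Between jazD cdk8-1 and jazD, 2 falls were counted without jazD cdk8-1 replicate 3, and in jazD cdk8-1 against Col-0, 5 without jazD cdk8-1 replicate 2 or 3.

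**Figure D2:**
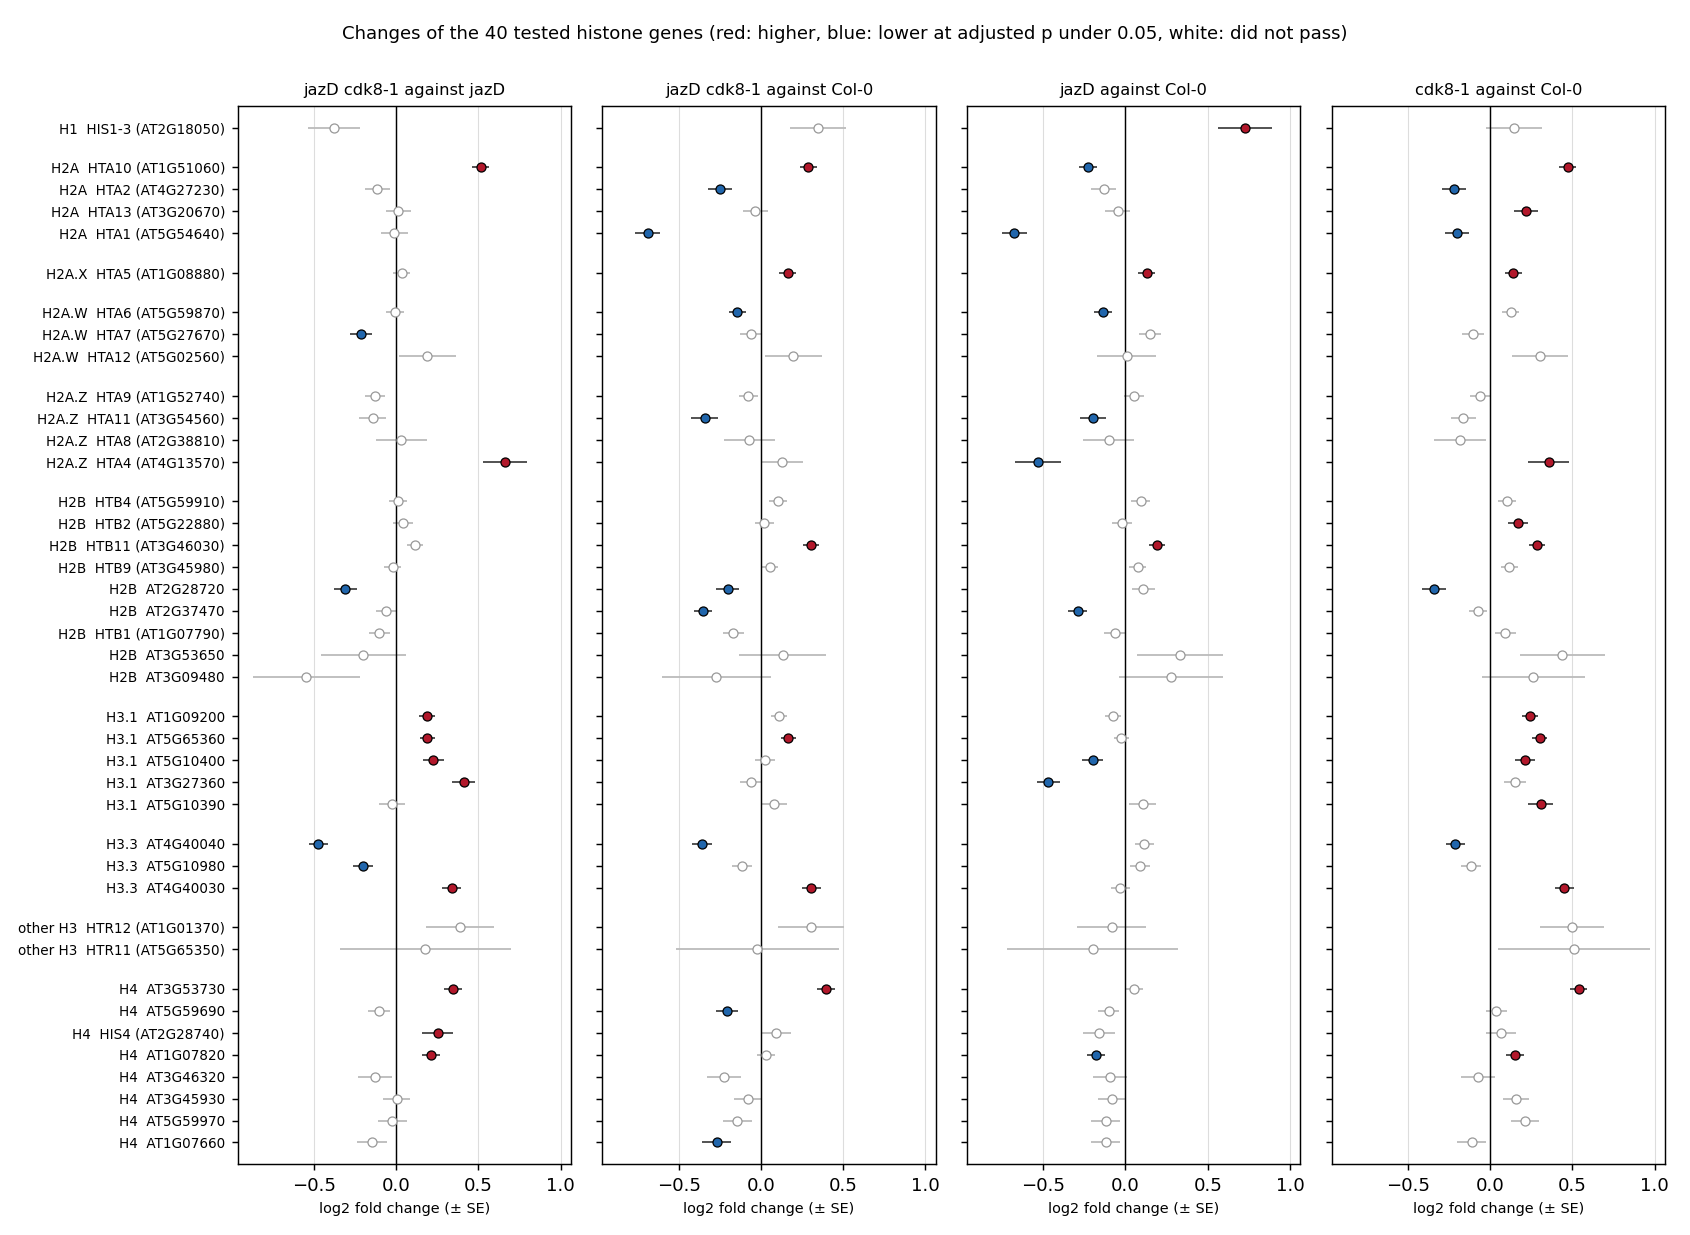
Log2 fold change of each tested histone gene (rows, grouped by class) with its approximate standard error, in 4 panels for the 4 pairs of genotypes. Red points rose and blue points fell at an edgeR adjusted p under 0.05, and white points did not pass; H3.1 points lie right of 0 in the cdk8-1 against Col-0 panel, and the H3.3 genes AT4G40030 and AT4G40040 lie on opposite sides in that panel and in the jazD cdk8-1 against jazD panel.

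The H3.1 genes, which encode the replication histone, mostly rose without CDK8. Of the 5, 4 rose in jazD cdk8-1 against jazD, where 16.9% of all tested genes rose, and 4 in cdk8-1 against Col-0, where 11.7% did. AT5G65360 had 93.2, 96.3 and 91.2 CPM in jazD cdk8-1 and 84.9, 79.5 and 81.6 CPM in jazD, and 101, 107 and 101 CPM in cdk8-1 and 81.4, 83.1 and 85.7 CPM in Col-0. The libraries without CDK8 lay above those with it in both backgrounds, with no overlap. The log2 changes were 0.19 ± 0.05 SE (edgeR adjusted p = 0.00246) in jazD cdk8-1 against jazD, 0.30 ± 0.05 (3.32e-05) in cdk8-1 against Col-0 and 0.17 ± 0.05 (0.00744) in jazD cdk8-1 against Col-0. AT1G09200, the most abundant of the 5, averaged 109 ± 2 CPM in jazD cdk8-1 and 95.7 ± 5.2 CPM in jazD, and 119 ± 6 CPM in cdk8-1 and 101 ± 3 CPM in Col-0 (SD, n = 3 each). It rose by 0.19 (edgeR adjusted p = 0.00511) in jazD cdk8-1 against jazD and by 0.24 (0.000830) in cdk8-1 against Col-0; without jazD replicate 2 the first of these was 0.13 with an adjusted p of 0.0589.

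The other H3.1 genes differed in how they answered to jazD. AT3G27360 had 28.5, 25.7 and 25.4 CPM in jazD cdk8-1, 21.7, 19.6 and 18.5 CPM in jazD, 31.03, 29.3 and 31.6 CPM in cdk8-1 and 26.5, 28.4 and 27.9 CPM in Col-0. Its lowest values were those of jazD: it fell by 0.47 in jazD against Col-0 (edgeR adjusted p = 1.14e-05) and rose by 0.41 in jazD cdk8-1 against jazD (7.73e-05), subject to the sharing of reads between copies. AT5G10400 fell by 0.20 in jazD against Col-0 (edgeR adjusted p = 0.0147), rose by 0.21 in cdk8-1 against Col-0 (0.0130) and rose by 0.23 in jazD cdk8-1 against jazD (0.00786). These calls rest on single libraries: the first was lost without Col-0 replicate 2 or jazD replicate 2 (-0.17 in either case, edgeR adjusted p = 0.0582 and 0.0636), the second without Col-0 replicate 3 or cdk8-1 replicate 2 (0.19 and 0.18, adjusted p = 0.0548 and 0.0570), and the third without jazD cdk8-1 replicate 2 (0.18, adjusted p = 0.0586).

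AT5G10390, which lies 577 bases from AT5G10400 on the same strand and encodes the same protein, behaved differently from its neighbour. It had 16.2, 15.6 and 15.6 CPM in jazD cdk8-1, 17.4, 16.1 and 14.7 CPM in jazD, 17.7, 19.8 and 18.1 CPM in cdk8-1 and 16.2, 14.1 and 14.5 CPM in Col-0. Only the cdk8-1 libraries stood above the rest. The gene rose by 0.31 in cdk8-1 against Col-0 (edgeR adjusted p = 0.00568) and its change was -0.02 in jazD cdk8-1 against jazD. The interaction, the change in jazD cdk8-1 over jazD less the change in cdk8-1 over Col-0, was -0.33 (edgeR adjusted p = 0.0459). That difference was lost when any 1 of 8 libraries was left out, namely replicates 2 and 3 of jazD cdk8-1, cdk8-1 and Col-0 and replicates 1 and 2 of jazD, where it ranged between -0.35 and -0.28 with edgeR adjusted p from 0.0573 to 0.123.

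The 3 H3.3 genes moved in opposite directions without CDK8. AT4G40030 (chr4:18555532-18557106, minus strand, TAIR10.1) and AT4G40040 (chr4:18557149-18558945, minus strand) follow each other 42 bases apart. AT4G40030 had 123, 116 and 108 CPM in jazD cdk8-1 and 93.8, 86.2 and 94.8 CPM in jazD, and 123, 140 and 121 CPM in cdk8-1 and 91.4, 95.4 and 93.8 CPM in Col-0. All 6 libraries without CDK8 stood above all 6 with it. It rose by 0.34 ± 0.06 SE (edgeR adjusted p = 9.87e-05) in jazD cdk8-1 against jazD, by 0.45 ± 0.06 (4.29e-06) in cdk8-1 against Col-0 and by 0.31 ± 0.06 (0.000310) in jazD cdk8-1 against Col-0.

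AT4G40040, the more abundant of the pair, had 173, 155 and 146 CPM in jazD cdk8-1 and 230, 206 and 220 CPM in jazD, and 173, 181 and 169 CPM in cdk8-1 and 205, 190 and 211 CPM in Col-0. Here all 6 libraries without CDK8 stood below all 6 with it. The gene fell by 0.47 ± 0.06 SE (edgeR adjusted p = 1.34e-06) in jazD cdk8-1 against jazD, by 0.21 ± 0.06 (0.00892) in cdk8-1 against Col-0 and by 0.36 ± 0.06 (5.65e-05) in jazD cdk8-1 against Col-0. Without Col-0 replicate 3 the cdk8-1 against Col-0 value was -0.18 with an adjusted p of 0.0603, and on log2(TPM + 1), where the scale shifts upward, it was -0.12 (limma adjusted p = 0.0641). The fall was larger in the jazD background by 0.26 (interaction -0.26, edgeR adjusted p = 0.0330). This difference did not pass without Col-0 replicate 2, cdk8-1 replicate 2, jazD replicate 1 or 3, or jazD cdk8-1 replicate 2 or 3 (-0.27 to -0.20, edgeR adjusted p from 0.0567 to 0.109).

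The third H3.3 gene, AT5G10980, encodes the same protein as AT4G40040. Only the longest annotated coding sequence of each gene was translated. For AT4G40030 it gave 164 residues, against 136 for AT4G40040 and AT5G10980. Whether a shorter form of AT4G40030 encodes the same protein was not checked. AT5G10980 averaged 93.2 ± 2.4 CPM in jazD cdk8-1 and 107 ± 5 CPM in jazD, and 93.1 ± 8.5 CPM in cdk8-1 and 101 ± 6 CPM in Col-0 (SD, n = 3 each). It fell by 0.20 in jazD cdk8-1 against jazD (edgeR adjusted p = 0.0108; without jazD cdk8-1 replicate 3, -0.18 and 0.0509), and the TPM scale gave -0.03 with a limma adjusted p of 0.576. Shares within a library do not depend on how libraries are scaled. AT4G40030 supplied 32.8 ± 0.3% of H3.3 TPM in jazD cdk8-1 and 23.1 ± 0.8% in jazD, and 33.7 ± 0.5% in cdk8-1 and 24.8 ± 1.3% in Col-0. AT4G40040 supplied 37.7 ± 1.1% in jazD cdk8-1 and 46.8 ± 0.9% in jazD, and 39.0 ± 1.2% in cdk8-1 and 45.4 ± 1.0% in Col-0 (SD, n = 3 each). The libraries without CDK8 did not overlap those with it for either gene. Summed over the 3 genes, H3.3 stood at 718 ± 29 TPM in jazD cdk8-1, 720 ± 15 TPM in jazD, 772 ± 23 TPM in cdk8-1 and 722 ± 12 TPM in Col-0.

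**Figure D3:**
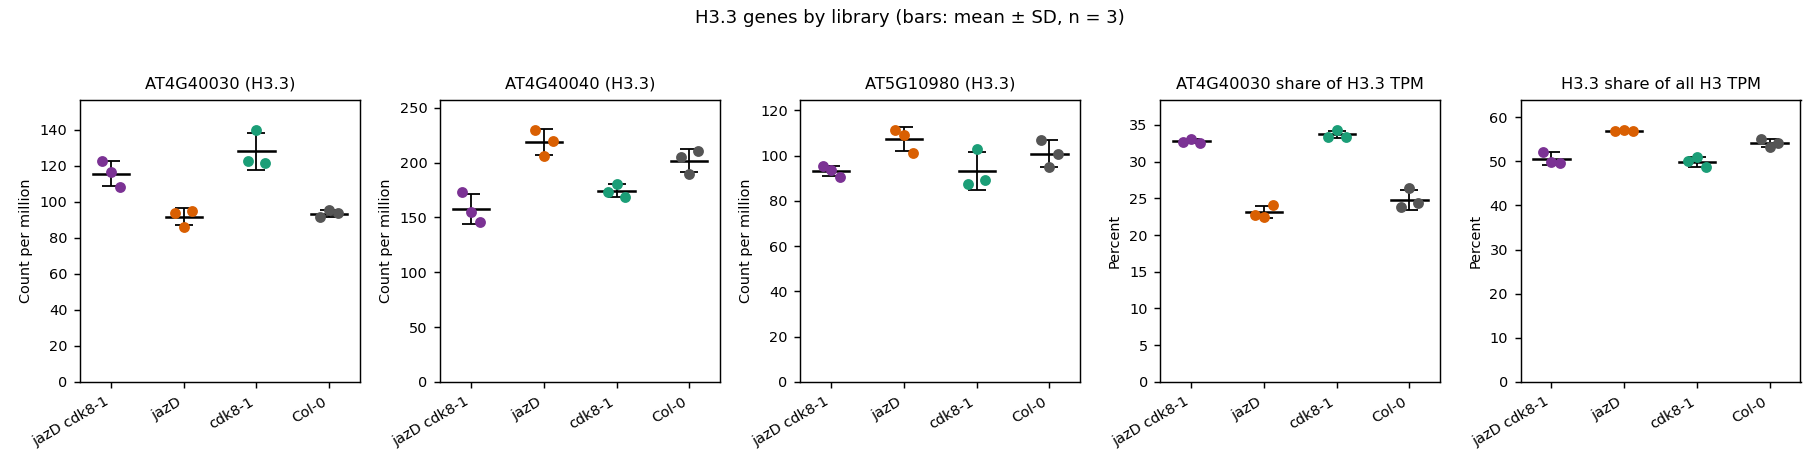
Level of the 3 H3.3 genes in CPM, the share of H3.3 TPM supplied by AT4G40030 and the share of all H3 TPM supplied by H3.3, in percent, with 1 point per library and the mean ± SD (n = 3). AT4G40030 is higher and AT4G40040 lower in both genotypes that carry cdk8-1, and the H3.3 share of H3 is highest in jazD.

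Without CDK8, the H4 genes, which encode a single protein, changed mainly through the most abundant of them. AT3G53730 had 68.1, 73.3 and 72.7 CPM in jazD cdk8-1 and 55.3, 57.2 and 56.1 CPM in jazD, and 77.8, 75.5 and 82.9 CPM in cdk8-1 and 56.2, 50.6 and 56.0 CPM in Col-0. All libraries without CDK8 stood above all with it, and jazD and Col-0 overlapped. Its rise of 0.54 ± 0.05 SE in cdk8-1 against Col-0 (edgeR adjusted p = 1.25e-07) was the largest of any histone gene that passed in that comparison, and it rose by 0.35 ± 0.05 (2.63e-05) in jazD cdk8-1 against jazD and by 0.40 ± 0.05 (5.52e-06) in jazD cdk8-1 against Col-0. It accounted for 30.97 ± 1.43% of H4 TPM in jazD cdk8-1 and 26.7 ± 0.9% in jazD, and for 30.9 ± 3.1% in cdk8-1 and 24.4 ± 1.8% in Col-0.

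Other H4 genes moved less. AT1G07820 averaged 55.0 ± 2.9 CPM in jazD cdk8-1, 47.5 ± 1.8 CPM in jazD, 59.7 ± 3.2 CPM in cdk8-1 and 53.7 ± 0.9 CPM in Col-0. It rose by 0.21 in jazD cdk8-1 against jazD (edgeR adjusted p = 0.00461) and fell by 0.18 in jazD against Col-0 (0.0114), a fall that was -0.16 without jazD replicate 1 (adjusted p = 0.0552). Its rise of 0.15 in cdk8-1 against Col-0 (edgeR adjusted p = 0.0414) was lost without each library except cdk8-1 replicate 3 (0.11 to 0.17, adjusted p from 0.0519 to 0.184). HIS4 (AT2G28740) rose by 0.25 in jazD cdk8-1 against jazD (edgeR adjusted p = 0.0433), a call lost without any 1 of the 6 libraries (0.21 to 0.28, adjusted p from 0.0612 to 0.156). In jazD cdk8-1 against Col-0, AT5G59690 fell by 0.20 (40.7 ± 1.9 against 46.8 ± 0.6 CPM, edgeR adjusted p = 0.0204) and AT1G07660 fell by 0.27 (9.43 ± 0.61 against 11.3 ± 0.7 CPM, 0.0237). The first was lost without Col-0 replicate 2 or jazD cdk8-1 replicate 2 or 3 (-0.20 to -0.18, adjusted p from 0.0527 to 0.0812) and the second without Col-0 replicate 1 or 3 or jazD cdk8-1 replicate 2 or 3 (-0.25 to -0.23, adjusted p from 0.0711 to 0.0956). AT5G59690 averaged 43.7 ± 2.3 CPM in jazD and 48.1 ± 5.0 CPM in cdk8-1, neither of which passed against Col-0.

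Among canonical H2A genes, HTA10 rose without CDK8 and HTA1 fell with jazD. Each also passed in a comparison for the other lesion. HTA10 (AT1G51060), which carries octamers on both strands of its promoter, had 82.4, 82.2 and 78.7 CPM in jazD cdk8-1 and 55.5, 57.7 and 57.0 CPM in jazD, and 90.4, 99.9 and 86.2 CPM in cdk8-1 and 67.2, 66.1 and 66.0 CPM in Col-0. The 4 genotypes did not overlap. It rose by 0.51 ± 0.05 SE in jazD cdk8-1 against jazD (edgeR adjusted p = 9.32e-08), by 0.47 ± 0.05 in cdk8-1 against Col-0 (4.72e-07) and by 0.29 ± 0.05 in jazD cdk8-1 against Col-0 (0.000170), and it fell by 0.23 ± 0.05 in jazD against Col-0 (0.00150). The difference between both effects of cdk8-1 was 0.04 (edgeR adjusted p of the interaction = 0.756).

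HTA1 (AT5G54640, also RAT5, a gene known for its part in Agrobacterium transformation) had 11.3, 12.5 and 12.6 CPM in jazD cdk8-1, 12.0, 11.7 and 13.2 CPM in jazD, 16.5, 17.9 and 16.8 CPM in cdk8-1 and 18.3, 20.7 and 19.8 CPM in Col-0. Both genotypes with the jaz mutations stood below both without them. It fell by 0.68 ± 0.08 SE in jazD against Col-0 (edgeR adjusted p = 3.90e-07) and by 0.69 ± 0.08 in jazD cdk8-1 against Col-0 (4.61e-07), the largest falls of any histone gene in these comparisons, and its change was -0.01 in jazD cdk8-1 against jazD. HTA1 lies between AT5G44490 and AT5G56910 on chromosome 5, an interval with 926 of the 19059 tested genes that holds 23 of the 40 genes at least 8-fold lower in jazD than in Col-0. An effect of jazD on HTA1 and an effect of sequence linked to the jaz mutations cannot be told apart. In cdk8-1 against Col-0 it fell by 0.20 (edgeR adjusted p = 0.0480), a call lost without Col-0 replicate 2 or 3 or cdk8-1 replicate 1 or 3 (-0.19 to -0.16, adjusted p from 0.117 to 0.172).

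HTA2 (AT4G27230) averaged 31.6 ± 0.3 CPM in jazD cdk8-1, 34.2 ± 1.4 CPM in jazD, 32.2 ± 4.2 CPM in cdk8-1 and 37.5 ± 2.6 CPM in Col-0. It fell by 0.25 in jazD cdk8-1 against Col-0 (edgeR adjusted p = 0.0139; -0.20 and 0.0737 without Col-0 replicate 2). Its fall of 0.22 in cdk8-1 against Col-0 (edgeR adjusted p = 0.0331), where libraries overlap, was -0.33 (0.000853) without cdk8-1 replicate 2 and was lost without Col-0 replicate 1 or 2 or cdk8-1 replicate 1 or 3 (-0.21 to -0.16, adjusted p from 0.0856 to 0.168). HTA13 (AT3G20670) rose by 0.22 in cdk8-1 against Col-0 (22.6 ± 2.0 against 19.5 ± 0.7 CPM, edgeR adjusted p = 0.0345), lost without Col-0 replicate 2 or 3 or cdk8-1 replicate 2 (0.14 to 0.21, adjusted p from 0.0874 to 0.188).

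**Figure D4:**
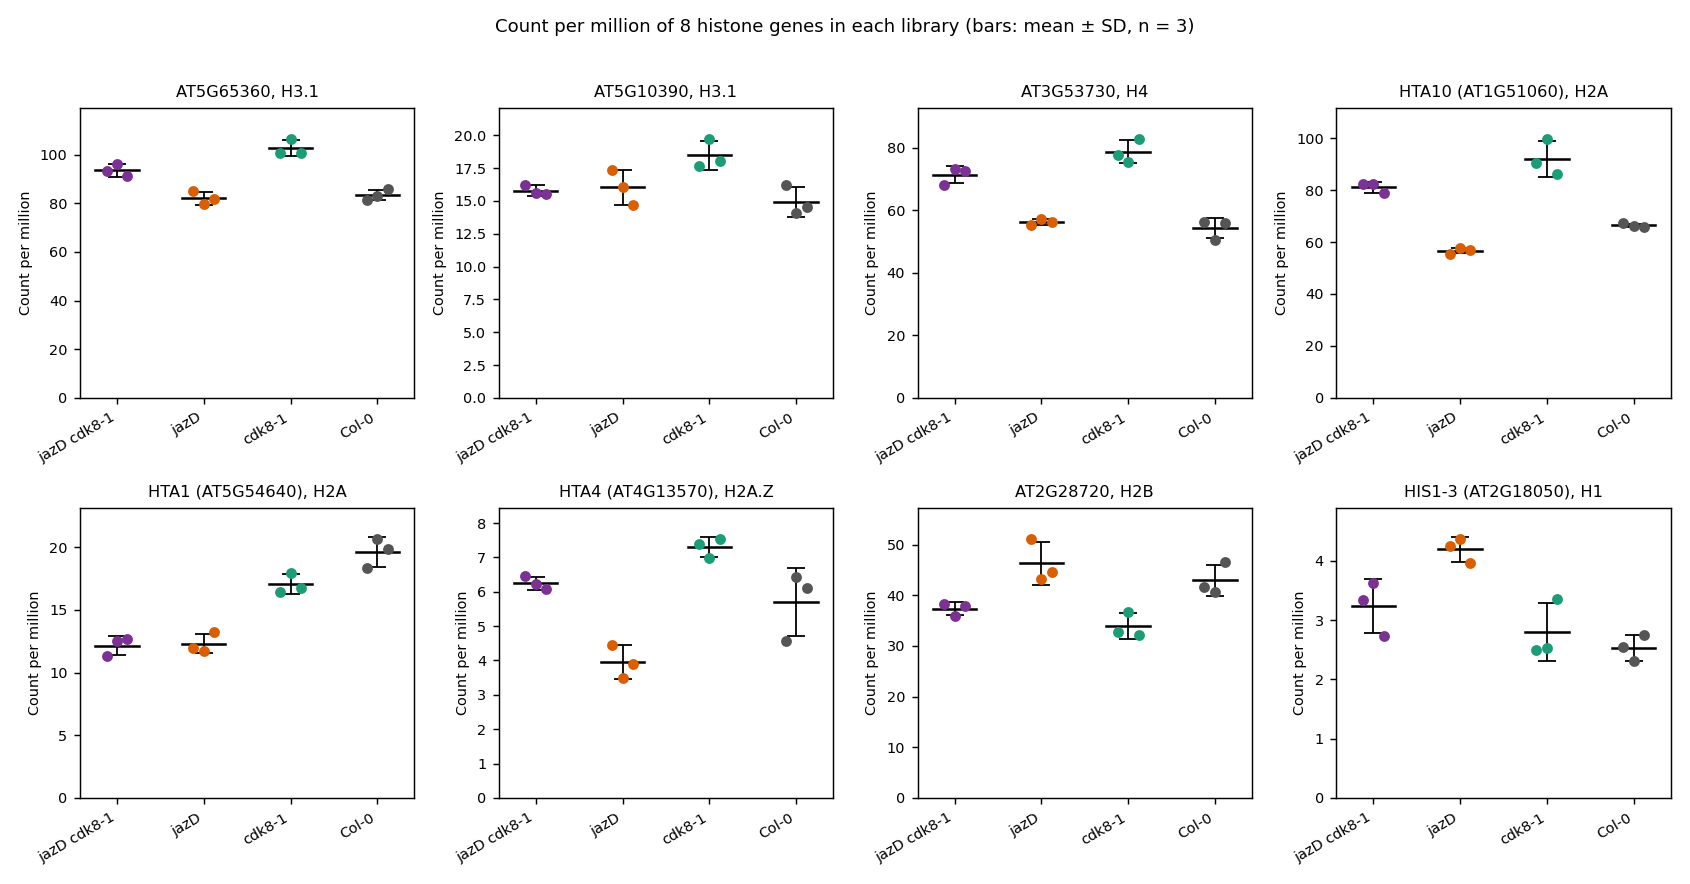
Level of 8 histone genes in CPM on axes that start at 0, with 1 point per library and the mean ± SD (n = 3 per genotype). AT5G65360, AT3G53730 and HTA10 are higher in both genotypes with cdk8-1, HTA1 is lower in both with jazD, and HIS1-3 is highest in jazD.

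Of the H2A variants, HTA4 had the largest changes that passed. HTA4 (AT4G13570), placed with the H2A.Z genes by its protein though only 57.5% identical to HTA9, had 6.45, 6.22 and 6.07 CPM in jazD cdk8-1, 4.47, 3.49 and 3.91 CPM in jazD, 7.38, 6.98 and 7.54 CPM in cdk8-1 and 4.57, 6.42 and 6.10 CPM in Col-0. Its jazD libraries were the lowest. It rose by 0.66 ± 0.14 SE in jazD cdk8-1 against jazD (edgeR adjusted p = 0.000612) and fell by 0.53 ± 0.14 in jazD against Col-0 (0.00363). The rise of 0.36 in cdk8-1 against Col-0 (edgeR adjusted p = 0.0385) was 0.23 (0.203) without Col-0 replicate 1, the lowest of that group, and was also lost without any 1 of the cdk8-1 libraries (0.33 to 0.39, adjusted p from 0.0518 to 0.107).

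HTA11 (AT3G54560), an H2A.Z gene, fell by 0.34 in jazD cdk8-1 against Col-0 (15.8 ± 0.8 against 20.0 ± 0.9 CPM, edgeR adjusted p = 0.00206). In jazD against Col-0 it fell by 0.20 (17.5 ± 1.9 against 20.0 ± 0.9 CPM, edgeR adjusted p = 0.0485), a value that was -0.10 (0.348) without jazD replicate 2 and was lost without every other library except jazD replicate 1 (-0.23 to -0.15, adjusted p from 0.0505 to 0.188). HTA9 (AT1G52740), the most abundant H2A.Z gene, averaged 55.7 ± 1.2 CPM in jazD cdk8-1, 60.9 ± 2.8 CPM in jazD, 56.2 ± 1.8 CPM in cdk8-1 and 58.7 ± 5.4 CPM in Col-0 and passed in no comparison. H2A.Z is the variant tied to responsive genes, and its 4 genes together made up 20.2 ± 0.6% of H2A TPM in jazD cdk8-1, 22.4 ± 1.2% in jazD, 19.1 ± 0.8% in cdk8-1 and 21.6 ± 0.9% in Col-0.

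Of the H2A.W genes, HTA7 (AT5G27670) fell by 0.21 in jazD cdk8-1 against jazD (21.4 ± 0.5 against 24.8 ± 0.9 CPM, edgeR adjusted p = 0.0163). It was lost without jazD replicate 3 or jazD cdk8-1 replicate 2 or 3 (-0.20 each, adjusted p from 0.0515 to 0.0542) and measured -0.05 on the TPM scale (limma adjusted p = 0.456). HTA6 (AT5G59870) averaged 68.4 ± 0.7 CPM in jazD cdk8-1, 68.8 ± 1.3 CPM in jazD, 82.4 ± 1.6 CPM in cdk8-1 and 75.5 ± 6.4 CPM in Col-0, where replicate 2 stood low at 68.2 CPM. Its falls of 0.14 in jazD against Col-0 (edgeR adjusted p = 0.0463) and in jazD cdk8-1 against Col-0 (0.0441) overlapped Col-0 and were lost without any 1 library except Col-0 replicate 2 (-0.15 to -0.09, adjusted p from 0.0660 to 0.239), without which the jazD value was -0.20 (0.00198). HTA5 (AT1G08880), of the H2A.X type that is phosphorylated at DNA breaks, averaged 57.9 ± 2.3 CPM in jazD cdk8-1, 56.5 ± 1.9 CPM in jazD, 57.0 ± 1.4 CPM in cdk8-1 and 51.7 ± 2.4 CPM in Col-0. It rose against Col-0 by 0.16 in jazD cdk8-1 (edgeR adjusted p = 0.0177), by 0.13 in jazD (0.0497) and by 0.14 in cdk8-1 (0.0478). The first was lost without Col-0 replicate 2 or jazD cdk8-1 replicate 2 or 3 (0.13 to 0.15, adjusted p from 0.0644 to 0.0960), the second without Col-0 replicate 2 or 3 or jazD replicate 1 or 2 (0.09 to 0.14, 0.0676 to 0.209) and the third without each library except Col-0 replicate 1 (0.10 to 0.16, 0.0558 to 0.200). Outside the rule, HTA3, its close relative with 88.3% identical coding sequence and counts divided between copies in 5 libraries, averaged 24.4 ± 0.2 CPM in jazD cdk8-1, 27.3 ± 0.4 CPM in jazD, 26.2 ± 0.9 CPM in cdk8-1 and 27.8 ± 3.1 CPM in Col-0, and fell by 0.19 in jazD cdk8-1 against Col-0 (edgeR adjusted p = 0.0439). The libraries of this call overlap, with Col-0 replicate 2 at 24.44 CPM, and HTA3 was not followed in the fits that leave out a library.

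Among the 9 tested H2B genes, AT2G28720 was lower in both genotypes without CDK8 and HTB11 higher in every mutant than in Col-0. The largest fall and rise of the class between 2 genotypes did not pass. AT3G09480 changed by -0.55 in jazD cdk8-1 against jazD and AT3G53650 by 0.44 in cdk8-1 against Col-0. AT2G28720 had 38.3, 36.0 and 37.8 CPM in jazD cdk8-1 and 51.1, 43.1 and 44.7 CPM in jazD, and 32.8, 36.8 and 32.1 CPM in cdk8-1 and 41.7, 40.6 and 46.5 CPM in Col-0. The libraries without CDK8 lay below all those with it. It fell by 0.31 ± 0.07 SE in jazD cdk8-1 against jazD (edgeR adjusted p = 0.00153) and by 0.34 ± 0.07 in cdk8-1 against Col-0 (0.00105). On the TPM scale the first of these was -0.14 with a limma adjusted p of 0.0682. The fall of 0.20 in jazD cdk8-1 against Col-0 (edgeR adjusted p = 0.0332) was lost without Col-0 replicate 3 or jazD cdk8-1 replicate 2 or 3 (-0.21 to -0.14, adjusted p from 0.0636 to 0.178).

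HTB11 (AT3G46030) had 96.7, 91.2 and 91.6 CPM in jazD cdk8-1, 84.0, 85.5 and 88.3 CPM in jazD, 92.95, 96.04 and 86.02 CPM in cdk8-1 and 72.4, 78.2 and 75.2 CPM in Col-0. All mutant libraries stood above Col-0. It rose against Col-0 by 0.31 in jazD cdk8-1 (edgeR adjusted p = 5.61e-05), by 0.19 in jazD (0.00402) and by 0.28 in cdk8-1 (0.000181); on the TPM scale the jazD value was 0.11 (limma adjusted p = 0.0657). AT2G37470 averaged 24.4 ± 0.7 CPM in jazD cdk8-1, 25.5 ± 0.5 CPM in jazD, 29.6 ± 1.2 CPM in cdk8-1 and 31.1 ± 1.2 CPM in Col-0 and fell against Col-0 by 0.35 in jazD cdk8-1 (edgeR adjusted p = 6.32e-05) and by 0.29 in jazD (0.000349). HTB2 (AT5G22880) rose by 0.17 in cdk8-1 against Col-0 (101 ± 8 against 89.7 ± 6.2 CPM, edgeR adjusted p = 0.0417), with overlapping libraries. That value was 0.11 (0.215) without cdk8-1 replicate 2, and it was also lost without Col-0 replicate 1 (0.12, 0.202) or cdk8-1 replicate 1 (0.18, 0.0638). HTB4, the most abundant histone gene, averaged 184 ± 5 CPM in jazD cdk8-1, 183 ± 8 CPM in jazD, 184 ± 17 CPM in cdk8-1 and 171 ± 5 CPM in Col-0 and passed in no comparison by edgeR. On the TPM scale, where the median gene also moved upward, it rose by 0.18 in cdk8-1 against Col-0 (limma adjusted p = 0.0112). There it also rose by 0.17 in jazD cdk8-1 against jazD (0.0109) and by 0.19 in jazD cdk8-1 against Col-0 (0.00893).

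HIS1-3 (AT2G18050), the only linker histone gene of the set, had 3.34, 3.64 and 2.73 CPM in jazD cdk8-1, 4.25, 4.37 and 3.97 CPM in jazD, 2.50, 2.53 and 3.36 CPM in cdk8-1 and 2.54, 2.31 and 2.75 CPM in Col-0. The jazD libraries were the highest of all. It rose by 0.73 ± 0.16 SE in jazD against Col-0 (edgeR adjusted p = 0.00109), the largest change of a histone gene that passed in any comparison. In jazD cdk8-1 the change against jazD was -0.38 (edgeR adjusted p = 0.0661) and against Col-0 0.35, and neither passed. HTR12, the centromeric H3, averaged 2.85 ± 0.39 CPM in jazD cdk8-1, 2.18 ± 0.38 CPM in jazD, 3.25 ± 0.49 CPM in cdk8-1 and 2.29 ± 0.52 CPM in Col-0, and HTR11 stayed between 0.178 and 0.769 CPM in all libraries. Neither passed in any comparison by edgeR. With limma on log2(TPM + 1), HTR12 rose by 0.485 in cdk8-1 against Col-0 (adjusted p = 0.0202) and by 0.43 in jazD cdk8-1 against jazD (0.0252).

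Summed by class, the order of the genotypes was the same for H2A, H3.1 and H4, with cdk8-1 highest and jazD lowest. H3.1 reached 276 ± 6 CPM in jazD cdk8-1 and 240 ± 10 CPM in jazD, and 306 ± 11 CPM in cdk8-1 and 257 ± 4 CPM in Col-0. H4 stood at 258 ± 3 CPM in jazD cdk8-1 and 236 ± 7 CPM in jazD, and at 287 ± 15 CPM in cdk8-1 and 251 ± 3 CPM in Col-0. Canonical H2A stood at 144 ± 2 CPM in jazD cdk8-1 and 122 ± 4 CPM in jazD, and at 164 ± 14 CPM in cdk8-1 and 143 ± 3 CPM in Col-0 (SD, n = 3 each). For these 3 classes the libraries without CDK8 lay above those with it in both backgrounds, on the CPM and the TPM scale. The H2A sum rose mainly through HTA10, at 81.11 against 56.75 CPM in jazD cdk8-1 and jazD, and 92.14 against 66.44 CPM in cdk8-1 and Col-0. Of the other canonical H2A genes, none passed in jazD cdk8-1 against jazD, and in cdk8-1 against Col-0 HTA13 rose while HTA1 and HTA2 fell. H2B sums overlapped in both of these comparisons on the CPM scale (546 ± 4 CPM in jazD cdk8-1, 549 ± 21 CPM in jazD, 566 ± 40 CPM in cdk8-1 and 527 ± 7 CPM in Col-0), whereas on the TPM scale they did not. The H3.3 sum was lower in jazD cdk8-1 than in jazD on the CPM scale (367 ± 23 against 417 ± 17 CPM) and overlapped on the TPM scale. All 45 genes together came to 1832 ± 34 CPM in jazD cdk8-1, 1813 ± 54 CPM in jazD, 1977 ± 102 CPM in cdk8-1 and 1823 ± 21 CPM in Col-0. Class sums are descriptions and were not tested.

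**Figure D5:**
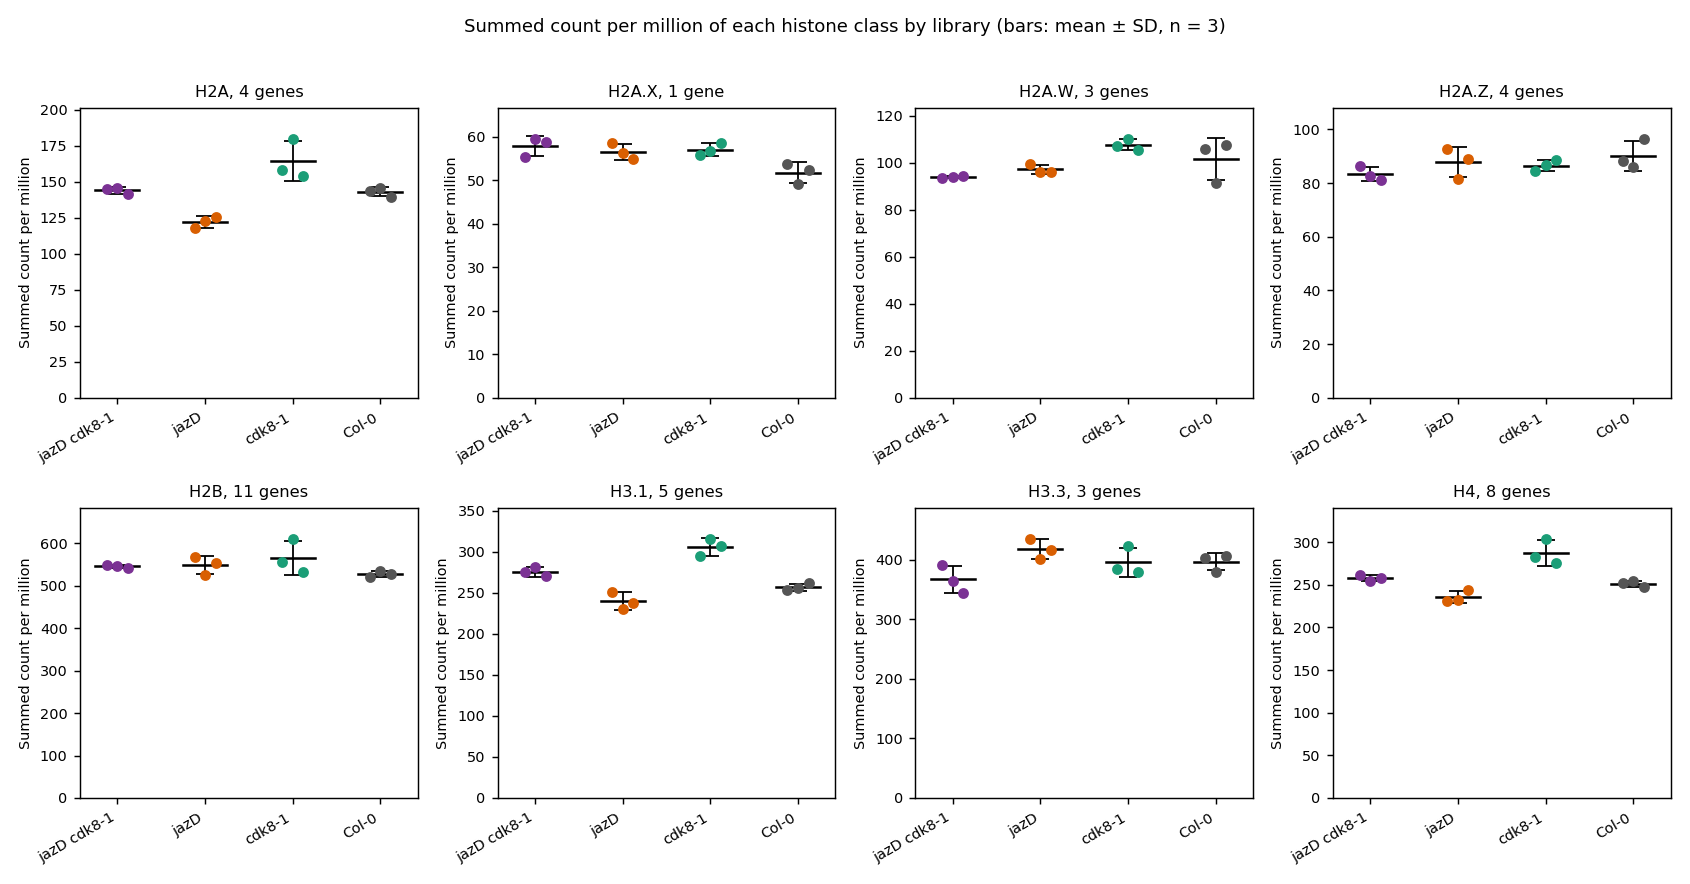
Summed CPM of 8 histone classes on axes that start at 0, with 1 point per library and the mean ± SD (n = 3 per genotype). H2A, H3.1 and H4 share 1 order of genotypes, with cdk8-1 highest and jazD lowest, while H2B differs little.

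Genes with the octamer printed above did not move as a block. Of the 9, 4 rose and 1 fell in jazD cdk8-1 against jazD (16.9% and 19.0% of all tested genes), and 5 rose and 1 fell in cdk8-1 against Col-0 (11.7% and 13.8%). The rising ones include HTA10 and the H3.1 genes AT1G09200, AT5G10400 and AT5G65360, and the falling one in both comparisons was the H3.3 gene AT4G40040. Among the 31 tested genes without the octamer, 6 rose and 3 fell in jazD cdk8-1 against jazD, and 8 rose and 3 fell in cdk8-1 against Col-0. In jazD against Col-0, 0 of the 9 rose and 3 fell, beside 3 and 6 of the 31 (21.8% and 20.9% of all tested genes). In jazD cdk8-1 against Col-0, 2 of the 9 rose and 4 fell, beside 4 and 5 of the 31 (16.3% and 16.1%). Motif and histone class were not separated. AT3G53730, whose rise in cdk8-1 was the largest, has none in this window.

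For the interaction, which sets the change in jazD cdk8-1 over jazD against the change in cdk8-1 over Col-0, AT4G40040 and AT5G10390 were the only histone genes that passed, both negative, against 8.39% of all tested genes that were negative and 8.16% positive. No histone gene was positive by edgeR or DESeq2, 1 was positive and 6 negative at an unadjusted edgeR p under 0.05, and limma on log2(TPM + 1) called 1 positive (8.97% of all genes) and 0 negative (6.05%). The median over the 40 was -0.11.

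Genes that act with histones in dividing cells gave the surrounding picture. Of 17 genes of mitosis, 10 rose in jazD cdk8-1 against jazD (16.9% of all tested genes rose), 7 fell in jazD against Col-0 (20.9% of all fell), and 5 rose and 1 fell in cdk8-1 against Col-0 (11.7% and 13.8% of all). The list's median log2 changes were 0.27, -0.27 and 0.04. AUR1, a mitotic kinase, rose by 0.68 (edgeR adjusted p = 7.75e-05) and CDKB2;2 by 0.71 (1.08e-05) in jazD cdk8-1 against jazD, CDKB2;2 fell by 0.58 (0.000110) in jazD against Col-0, and CDKB1;1 rose by 0.74 (0.000132) in cdk8-1 against Col-0. Their summed level was 161 to 173 CPM in jazD cdk8-1, 125 to 139 CPM in jazD, 169 to 174 CPM in cdk8-1 and 159 to 164 CPM in Col-0. In its extremes this is the order of genotypes seen for H3.1, H4 and H2A, although the ranges of cdk8-1 and jazD cdk8-1 overlap. For the interaction, 4 of the 17 were positive and 0 negative (8.16% and 8.39% of all tested genes). The list's median there was 0.23, whereas that of the histone genes was -0.11. The part of cell division in the histone values was not tested.

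Genes of DNA replication did not share that order. Of 19, 2 rose and 4 fell in jazD cdk8-1 against jazD (16.9% and 19.0% of all tested genes) and again in cdk8-1 against Col-0 (11.7% and 13.8%), which is near those backgrounds. In jazD against Col-0, 7 fell (20.9% of all), and in jazD cdk8-1 against Col-0, 2 rose and 10 fell (16.3% and 16.1%). TSO2, a subunit of ribonucleotide reductase, rose by 0.30 in jazD cdk8-1 against jazD (edgeR adjusted p = 2.84e-05) and by 0.31 in cdk8-1 against Col-0 (2.40e-05), while MCM7 of the replicative helicase fell by 0.18 (0.0173) and 0.23 (0.00447). Their summed level was 367 to 388 CPM in jazD cdk8-1, 383 to 387 CPM in jazD, 402 to 421 CPM in cdk8-1 and 409 to 431 CPM in Col-0. Among the 6 E2F, DP and RBR genes, regulators of entry into replication, 1 rose and 0 fell in cdk8-1 against Col-0 (11.7% and 13.8% of all). In jazD against Col-0, 0 rose and 1 fell (21.8% and 20.9%), and in jazD cdk8-1 against Col-0, 0 rose and 2 fell (16.3% and 16.1%). E2FC rose by 0.28 in cdk8-1 against Col-0 (edgeR adjusted p = 0.0396) and RBR1 fell by 0.18 in jazD against Col-0 (0.00959). None passed in jazD cdk8-1 against jazD by edgeR, also at an unadjusted p under 0.05.

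Histone chaperones carry histones to DNA. Of 18, 5 rose and 1 fell in jazD cdk8-1 against jazD (16.9% and 19.0% of all tested genes), 3 rose and 6 fell in jazD against Col-0 (21.8% and 20.9%), and 1 rose and 1 fell in cdk8-1 against Col-0 (11.7% and 13.8%). In both directions together the counts in jazD against Col-0 are near the 42.8% of all genes and those in cdk8-1 against Col-0 below the 25.4%. In jazD cdk8-1 against jazD, ATRX, an H3.3 chaperone, rose by 0.34 (edgeR adjusted p = 0.000483), NAP1;2, an H2A-H2B chaperone, rose by 0.23 (0.000549), and NAP1;3 fell by 0.23 (0.00155). ASF1A, an H3-H4 chaperone, rose by 0.34 in cdk8-1 against Col-0 (edgeR adjusted p = 0.00463), and NRP1 fell by 0.27 in jazD against Col-0 (0.000597). HIRA, which deposits H3.3, rose by 0.26 in jazD cdk8-1 against jazD (0.0374).

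Markers of other organs were low but moved. Of the 4 shoot meristem markers, WUS and CLV3 had at most 2 counts in any library, and KNAT1 and STM rose by 0.55 and 0.61 in jazD cdk8-1 against jazD (edgeR adjusted p = 0.00711 and 0.00356) and fell by 0.51 and 0.40 in jazD against Col-0 (0.00975 and 0.0436). Their summed level was 8.73 to 8.80 CPM in jazD cdk8-1, 4.74 to 6.75 CPM in jazD, 8.74 to 10.7 CPM in cdk8-1 and 7.75 to 8.41 CPM in Col-0. The 5 floral markers together stood at 0.973 to 1.72 CPM in jazD cdk8-1, 0.541 to 0.592 CPM in jazD, 0.672 to 1.297 CPM in cdk8-1 and 1.25 to 2.06 CPM in Col-0, and the only one tested, AG, fell by 1.47 in jazD against Col-0 (edgeR adjusted p = 0.0126) and rose by 1.34 in jazD cdk8-1 against jazD (0.0276), with an interaction of 2.35 (0.0120). AG had only 2 to 7 counts per library in jazD and 10 to 17 in jazD cdk8-1. Its rise in jazD cdk8-1 against jazD did not pass with DESeq2 or with limma on centred TPM. Of the 4 root markers only NRT2.1 was tested, which rose by 2.14 in jazD against Col-0 (edgeR adjusted p = 1.58e-05), fell by 1.14 in jazD cdk8-1 against jazD (0.00348) and rose by 1.00 in jazD cdk8-1 against Col-0 (0.0394). Marker genes were not followed in the fits that leave out a library. ANT and GIF1, markers of young organs, summed to a median of 30.1 CPM in jazD cdk8-1, 28.6 CPM in jazD, 32.5 CPM in cdk8-1 and 30.9 CPM in Col-0, with ANT up by 0.22 in cdk8-1 against Col-0 (edgeR adjusted p = 0.0382). The meristem levels were lowest in the genotype where H2A, H3.1, H4 and the mitotic genes were lowest, and their part in those values was not tested.

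Among loci that the rule takes in by wording, 2 annotated as SET7/9 family methyltransferases passed in several comparisons: AT1G77660 changed more than any histone gene in jazD against Col-0, and AT1G21920 more than any that passed in cdk8-1 against Col-0. AT1G77660 had 7.29, 6.55 and 7.18 CPM in jazD cdk8-1, 10.6, 14.3 and 11.6 CPM in jazD, 7.04, 5.53 and 6.05 CPM in cdk8-1 and 6.54, 4.06 and 4.998 CPM in Col-0. Only jazD stood apart upward: it rose by 1.23 ± 0.14 SE in jazD against Col-0 (edgeR adjusted p = 4.18e-07) and fell by 0.80 ± 0.14 in jazD cdk8-1 against jazD (7.93e-05), with an interaction of -1.06 (0.00105). Its rise of 0.43 in jazD cdk8-1 against Col-0 (edgeR adjusted p = 0.0343) was 0.28 (0.193) without Col-0 replicate 2 and was lost without Col-0 replicate 3 or jazD cdk8-1 replicate 1 or 3 (0.40 to 0.41, adjusted p from 0.0896 to 0.0992).

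AT1G21920 had 23.9, 26.6 and 25.8 CPM in jazD cdk8-1 and 33.8, 33.3 and 33.5 CPM in jazD, and 23.2, 21.4 and 22.7 CPM in cdk8-1 and 36.9, 38.8 and 39.7 CPM in Col-0. All libraries without CDK8 lay below all those with it. It fell by 0.39 ± 0.06 SE in jazD cdk8-1 against jazD (edgeR adjusted p = 1.74e-05), by 0.78 ± 0.06 in cdk8-1 against Col-0 (2.44e-09), by 0.60 in jazD cdk8-1 against Col-0 (5.69e-08) and by 0.20 in jazD against Col-0 (0.00667), with an interaction of 0.38 (0.00261). Of the other loci of this family, AT2G35170 and AT4G17080 rose by 0.37 and 0.20 in cdk8-1 against Col-0 (edgeR adjusted p = 0.0313 and 0.0329). The first was lost without Col-0 replicate 2 or 3 or cdk8-1 replicate 1 (0.29 to 0.36, adjusted p from 0.0839 to 0.139) and the second without the same libraries (0.14 to 0.21, 0.0578 to 0.184). MHF1 passed in no comparison, at 1.47 ± 0.22 CPM in jazD cdk8-1, 1.65 ± 0.28 CPM in jazD, 1.54 ± 0.36 CPM in cdk8-1 and 1.28 ± 0.15 CPM in Col-0.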

How the data were processed

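RNA of 12 whole-rosette pools was sequenced on the DNBseq platform, per the labels' protocols. Per the submitters' processing notes, RSEM 1.2.25 and the genome build TAIR10 were used; aligner, annotation and use of strand are not given there, so reads of overlapping or antisense genes cannot be told apart. The authors deposited expected counts, the estimated counts of RSEM that divide reads between similar copies, of which 96.58% are whole (tolerance 1e-6), and the authors' deposited TPM values, which are scaled for length and library.

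Expected counts were rounded, filtered with filterByExpr, scaled by TMM (factors 0.9543 to 1.0557) and tested 2-sided with edgeR 4.0.16 quasi-likelihood in R 4.3.3 over all 12 libraries, 1 mean per genotype, 8 residual degrees of freedom, a common biological coefficient of variation of 5.07%, and Benjamini-Hochberg adjustment over 19059 genes (threshold 0.05). SE is the absolute log2 change divided by the square root of F. CPM uses TMM library sizes. The script was tested on simulated data with planted changes larger than most of those described here. That test does not show how well small changes are found. Alternatives were RLE size factors, DESeq2 1.42.0, no filter, 2 genotypes only, a replicate block, limma 3.58.1 on log2(TPM + 1) and log2(TPM + 0.1), and leaving out each library; limma on centred TPM was added after seeing the data. Replicate numbers do not pair the samples.

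Libraries held 17583466 to 21030373 counts, and P-values measure the spread between separate pools of plants. Histone classes follow symbols in the file and identity of proteins translated from RefSeq TAIR10.1, whose coordinates are printed. Named were every histone gene that passed, the 2 with the highest TPM per class, HTA1 by its interval, all untested members, up to 4 genes per related list and CDK8; E2FC, HIRA, HTA3, MCM7 and the organ markers were added after their values were seen. The members and lists were chosen with earlier results of these data known. Figures were drawn with matplotlib.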

Additional observations from a re-analysis of the deposited data

Results flagged for a closer look

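The effect of cdk8-1 in jazD differed from its effect with intact JAZ genes, by the interaction term of the edgeR fit, for 4 loci that the annotation rule takes in. For the H3.3 gene AT4G40040 the difference was -0.26 (adjusted p = 0.0330), with falls of 0.47 in jazD cdk8-1 against jazD and of 0.21 in cdk8-1 against Col-0. For the H3.1 gene AT5G10390 it was -0.33 (adjusted p = 0.0459), with changes of -0.02 and 0.31. The methyltransferase-family locus AT1G77660 gave -1.06 (adjusted p = 0.00105), and AT1G21920 of the same family gave 0.38 (adjusted p = 0.00261). Both histone calls were lost when any of several single libraries was left out, and the values of AT1G77660 and AT1G21920 passed without each library.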

How the results depend on the processing

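In cdk8-1 against Col-0, where 13 histone genes rose and 4 fell, the counts were 13 and 4 with RLE size factors, 9 and 3 with DESeq2, 12 and 3 without the filter, and 9 and 2 from the 2 genotypes alone. The TPM scale without centring moved them most. With either pseudocount it gave 1 and 15 in jazD against Col-0, 21 and 1 in cdk8-1 against Col-0, 20 and 1 in jazD cdk8-1 against jazD, 11 and 4 in jazD cdk8-1 against Col-0, and 1 positive and 0 negative for the interaction. Centred TPM gave 1 positive and 1 negative for the interaction, and DESeq2 gave 1 negative.

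In jazD cdk8-1 against jazD, 3 H2B and H2A.W genes that did not pass on the count scale turned positive on log2(TPM + 1) and log2(TPM + 0.1): AT2G37470 (0.11 and 0.11), AT3G45980 (0.15 and 0.15) and AT5G59870 (0.15 and 0.16), where the median of all genes moves by 0.13.

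Leaving out 1 library gave 7 to 13 rises and 2 to 5 falls in cdk8-1 against Col-0, 2 to 3 and 6 to 7 in jazD against Col-0, 8 to 10 and 2 to 5 in jazD cdk8-1 against jazD, 5 to 6 and 5 to 9 in jazD cdk8-1 against Col-0, and 0 to 1 positive and 0 to 2 negative for the interaction. Rises numbered 7 without cdk8-1 replicate 2. Of the calls over all tested loci of the rule, 9 of 14, 9 of 20, 11 of 16, 10 of 17 and 2 of 4 held in every such fit; fewer samples entered those fits.

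With the replicate block the counts were 2 and 7 in jazD against Col-0, 9 and 4 in cdk8-1 against Col-0, 10 and 4 in jazD cdk8-1 against jazD, 6 and 8 in jazD cdk8-1 against Col-0, and 1 negative for the interaction. The numbers do not pair the samples: deviations of same-numbered libraries correlated between -0.058 and 0.051, and of others between -0.066 and 0.066. At this depth, genes with few reads, such as HTR11 and AT3G09480, have standard errors above most of the changes described.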
